A study of Mus musculus with 8 samples.

Results

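The genes described here are 55 genes of the cell division cycle, 23 whose products copy DNA in S phase and 32 that act in G2 and mitosis, chosen by name from a list and not by their values. All 55 were among the 16887 genes tested, out of 49315 gene identifiers with counts. ECs were taken from whole brains of P9 pups with magnetic beads that bind CD31, a surface protein of ECs, and RNA was sequenced from 4 Mutant and 4 Wild type pups, each the source of 1 library. Mutant pups carried the genotype *Map2k1* K57N, that is R26 GT-Map2k1-GFP/+ together with Tg-Cdh5CreER +/-. The R26 GT-Map2k1-GFP allele holds a cDNA of constitutively active MAP2K1 and GFP behind a stop cassette at the *Rosa* locus, and Tg-Cdh5CreER makes a tamoxifen-dependent Cre from the promoter of the endothelial cadherin gene. Wild type pups were chosen at random from the litters of the mutants, and all litters had received tamoxifen at P1, so tamoxifen was common to both groups. Both strains were kept by backcrossing to C57BL/6J. The labels call the controls Wild type, the study elsewhere calls them Tg:Cdh5-CreER, and the label is used here. The mutant allele is driven by a CAG promoter and not by that of *Map2k1*, the allele is activated in only part of the ECs, and no pup expressed unmutated MAP2K1 from the *Rosa* locus.

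MAP2K1, also called MEK1, is the kinase that activates ERK, and ERK signalling is a well known route by which growth factors drive cells from G1 into S phase. On entry into S phase, E2F transcription factors switch on genes for the replicative helicase, the polymerases and nucleotide synthesis. Later in the cycle, genes for cyclin B, the mitotic kinases and the kinetochore are switched on through CCAAT boxes and a promoter element named the cell cycle homology region (CHR). Brain ECs divide while the vessel network of the young brain grows and become largely quiescent in the adult, and the transcripts of both gene groups are widely used to score the share of cells in cycle. In RNA from a bulk sample, fewer cycling cells and less RNA per cycling cell cannot be told apart.

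The libraries held 24833373 to 34196955 counts on genes. *Map2k1*, the targeted gene, stood at 14598 ± 2847 normalized counts in the Mutant libraries and 1609 ± 116 in the Wild type libraries (SD, n = 4 each), with no overlap, in the direction of the labels. Normalized counts are counts scaled by edgeR's TMM factors to the mean library size. The fit with edgeR called 7504 genes at an adjusted p under 0.05, 21.5% of all genes tested higher and 22.9% lower in Mutant libraries (44.4% in all), and 14.0% of genes also passed an absolute log2 fold change over 1. Groups did not overlap for 20.6% of genes in the higher direction and 21.9% in the lower. The median log2 fold change of all genes tested was -0.02. The 10 endothelial markers were all detected in every library, with 341547 to 439820 normalized counts in sum.

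The transcripts of these 55 genes differed little between Mutant and Wild type libraries, and those that differed were mostly higher in Mutant libraries. Other genes of the same pathways, given below, included larger changes in both directions. The Mutant libraries pool ECs with and without the active allele, and levels in the cells with the active allele alone were not measured. Of the 55 genes, 17 rose, 2 fell and 36 were not called, which is 30.9% higher and 3.64% lower. In this fit, which has no block, the share called in either direction, 34.5%, was below that of all genes (44.4%). It was not below with the opening digits of the description labels as a block, where 29 of the 55 and 8610 of all 16887 genes were called. Nor was it with the replicate number as a block, where 27 and 8162 were called. None of the 55 passed an absolute log2 fold change over 1. The estimates ran from -0.44 for *Ttk* to 0.65 for *Gins2*, with a median of 0.19, and 41 of them lay above 0 and 14 below. The 95% interval of 54 genes stayed within a 2-fold change in either direction, the exception being *Gins2* with an upper bound of 1.03 on the log2 scale, and that of 39 genes stayed within a 1.5-fold change. In 13 genes every Mutant library lay above every Wild type library (23.6% of the 55, against 20.6% of all genes), and in none did every Mutant library lie below (21.9% of all genes).

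**Figure D1:**
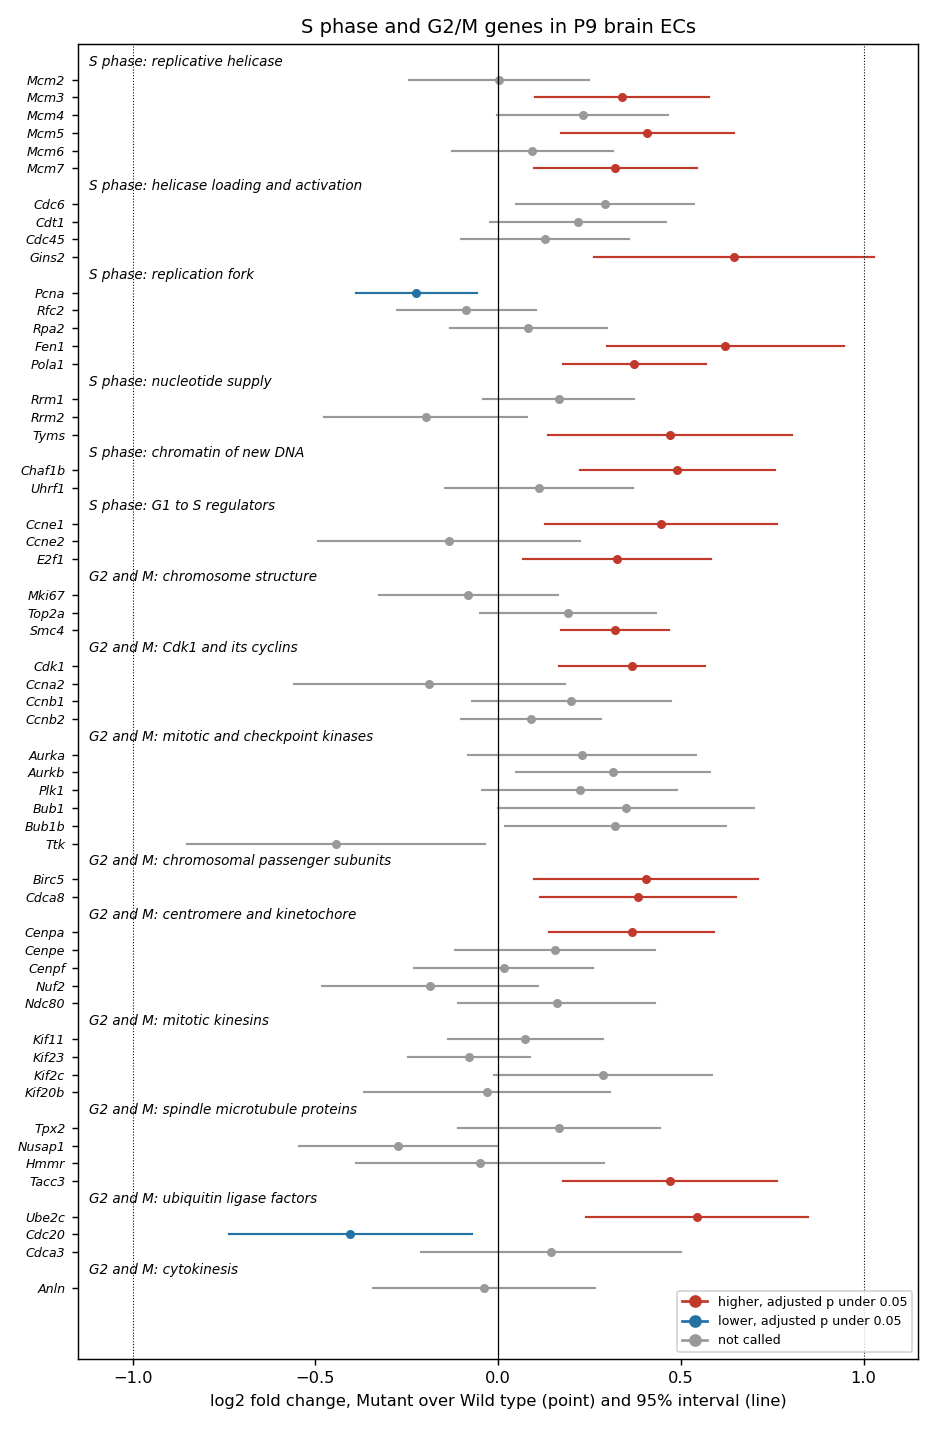
Log2 fold change (Mutant over Wild type, x axis) of each of the 55 genes with its 95% interval from edgeR, in groups by role. Red genes were called higher and blue genes lower at an adjusted p under 0.05. Dotted lines mark a log2 fold change of 1 in either direction. No estimate reaches a dotted line, and only the interval of *Gins2* crosses it.

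Among the 23 S phase genes, 10 rose (43.5%), 1 fell and 12 were not called, at a median log2 fold change of 0.23. Among the 32 G2 and M genes, 7 rose (21.9%), 1 fell and 24 were not called, with a median of 0.16. In this fit the share of S phase genes that rose was above the 21.5% of all genes, and the share of G2 and M genes was close to it. With the opening digits of the description labels as a block, as given below, both shares were above that of all genes. The S phase count fell from 10 to 6 when the library of Mutant 2 or that of Wild type 4 was left out. The G2 and M median was 0.10 without Wild type 4, 0.26 without Mutant 4, 0.10 under upper quartile scaling and 0.11 with total counts alone. Under upper quartile scaling or with total counts alone, 7 in place of 10 S phase genes rose, and 6 in place of 7 G2 and M genes rose and 3 in place of 1 fell. The calls of all 16887 genes moved the same way, from 3631 higher and 3873 lower in the main fit. They were 3141 higher and 4571 lower under upper quartile scaling, and 3196 and 4455 with total counts alone. Under upper quartile scaling *Mcm3* (adjusted p = 0.052), *Mcm7* (0.066), *E2f1* (0.098) and *Birc5* (0.058) were not called. With total counts alone *Mcm7* (adjusted p = 0.071), *E2f1* (0.0998), *Ccne1* (0.0503) and *Birc5* (0.052) were not called.

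The replicative helicase, the MCM complex that unwinds DNA ahead of the fork, had 3 of 6 subunits higher. *Mcm5* had 1398, 1766, 1591 and 1569 normalized counts in the Mutant libraries and 1265, 1382, 1089 and 1029 in the Wild type libraries. All Mutant libraries lay above all Wild type libraries, with a log2 fold change of 0.41 (SE 0.11, adjusted p = 0.011). *Mcm7* had 1218, 1348, 1440 and 1305 counts against 1096, 1194, 1090 and 871, again with no overlap (log2 fold change 0.32, SE 0.10, adjusted p = 0.025). *Mcm3* had 2374, 2467, 2431 and 2271 against 1963, 2288, 1737 and 1558. The highest Wild type library of *Mcm3* thus lay inside the Mutant range, and the log2 fold change was 0.34 (SE 0.11, adjusted p = 0.026). The call of *Mcm3* was lost without Mutant 2, Wild type 3 or Wild type 4 (adjusted p = 0.061, 0.063 and 0.059), and that of *Mcm7* without Mutant 2 or Mutant 3 (adjusted p = 0.054 and 0.058). The other subunits were not called, with log2 fold changes of 0.00 for *Mcm2*, 0.09 for *Mcm6* and 0.23 for *Mcm4*. *Mcm2* stood at 1869 ± 115 against 1865 ± 299 normalized counts, and its 95% interval ran from -0.24 to 0.25. The estimate of *Mcm2* turned negative under upper quartile scaling (-0.06) and with total counts alone (-0.05).

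Of the 4 genes that load and activate the helicase, *Gins2* rose. It encodes a subunit of GINS, which joins CDC45 and the MCM ring in the active helicase. It had 212, 225, 214 and 249 normalized counts in the Mutant libraries and 158, 182, 129 and 105 in the Wild type libraries. The groups did not overlap, and the log2 fold change of 0.65 (SE 0.17, adjusted p = 0.012) was the highest among the 55 genes. However, 67.3% of the exonic bases of *Gins2* lie opposite exons of *Gse1*, which had 2059 ± 208 normalized counts in the Mutant and 2411 ± 106 in the Wild type libraries (log2 fold change -0.23, adjusted p = 0.042). The sources used here do not say whether counting used the strand, and without it reads of this pair cannot be told apart. The licensing factors *Cdc6* (log2 fold change 0.29, adjusted p = 0.052) and *Cdt1* (0.22, adjusted p = 0.13) and the helicase subunit *Cdc45* (0.13, adjusted p = 0.34) were not called.

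Of the 5 replication fork genes, 2 rose and 1 fell. *Fen1*, the nuclease that trims the flaps of Okazaki fragments, had 230, 237, 227 and 200 normalized counts in the Mutant libraries and 175, 154, 129 and 122 in the Wild type libraries. The groups stood apart, with a log2 fold change of 0.62 (SE 0.15, adjusted p = 0.0060). Opposite 78.8% of its exonic bases lies *Gm10143*, which had 100 counts over all 8 libraries, against 1452 for *Fen1*. Opposite another 5.37% lies *Tmem258*, with 5187 counts, which rose by a similar size (782 ± 43.4 against 530 ± 53.2 normalized counts, log2 fold change 0.56, adjusted p = 0.00082). Without strand, reads in the shared bases cannot be assigned to either gene. *Pola1*, the catalytic subunit of the polymerase that starts each new strand, had 583, 713, 659 and 644 against 509, 506, 521 and 472. Its Wild type libraries were close together (SD 21.2), all below the Mutant libraries, and the log2 fold change was 0.37 (SE 0.09, adjusted p = 0.0062). *Pcna*, the sliding clamp that holds polymerases on DNA, was the 1 S phase gene that fell. It had 5985, 5817, 6895 and 6060 normalized counts in the Mutant libraries and 7414, 7488, 7297 and 6710 in the Wild type libraries. Mutant 3 lay above Wild type 4, so the groups overlapped, and the log2 fold change was -0.22 (SE 0.08, adjusted p = 0.033). *Pcna* was the most abundant of the 55 per length, at an FPKM of 87.0 ± 6.77 in the Mutant and 102 ± 4.98 in the Wild type libraries. The processed pseudogene *Pcna-ps2* had 14 to 29 counts per library. The call of *Pcna* held without Mutant 3 and without Wild type 4, and was lost without any other 1 library (adjusted p = 0.068 to 0.11). *Rfc2*, a clamp loader subunit (-0.09, adjusted p = 0.44), and *Rpa2*, of the complex that coats single-stranded DNA (0.08, adjusted p = 0.52), were not called.

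For nucleotide supply, *Tyms*, thymidylate synthase, had 391, 547, 443 and 420 normalized counts in the Mutant libraries against 342, 400, 277 and 280. Only Wild type 2 reached into the Mutant range, and the log2 fold change was 0.47 (SE 0.15, adjusted p = 0.027). Without Mutant 2, Wild type 3 or Wild type 4, *Tyms* was not called (adjusted p = 0.081, 0.065 and 0.072). The subunits of ribonucleotide reductase were not called and had opposite signs, *Rrm1* at 0.17 (adjusted p = 0.18) and *Rrm2* at -0.20 (adjusted p = 0.22). Of the genes for chromatin on new DNA, *Chaf1b*, a subunit of the histone chaperone CAF-1, had 335, 412, 371 and 403 counts against 284, 309, 254 and 236. It did not overlap between the groups (log2 fold change 0.49, SE 0.12, adjusted p = 0.0076). *Uhrf1*, which brings the maintenance DNA methyltransferase to the fork, was not called (0.11, adjusted p = 0.46).

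Of the regulators of entry into S phase, *Ccne1* (cyclin E1) stood at 294 ± 36.9 normalized counts in the Mutant and 216 ± 30.5 in the Wild type libraries (log2 fold change 0.45, adjusted p = 0.028). *E2f1*, an activating E2F factor, stood at 417 ± 28.3 against 333 ± 44.2 (log2 fold change 0.32, adjusted p = 0.043). Both rose, *Ccne1* without overlap and *E2f1* with overlap. The call of *Ccne1* was lost without Mutant 1, Mutant 3 or Wild type 4 (adjusted p = 0.054, 0.068 and 0.067), and *E2f1* was called without Mutant 1 or Wild type 2 and lost without any other 1 library (adjusted p = 0.052 to 0.11). *Ccne2* (cyclin E2) stood at 321 ± 61.3 against 353 ± 51.4 and was not called (log2 fold change -0.13, adjusted p = 0.53).

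**Figure D2:**
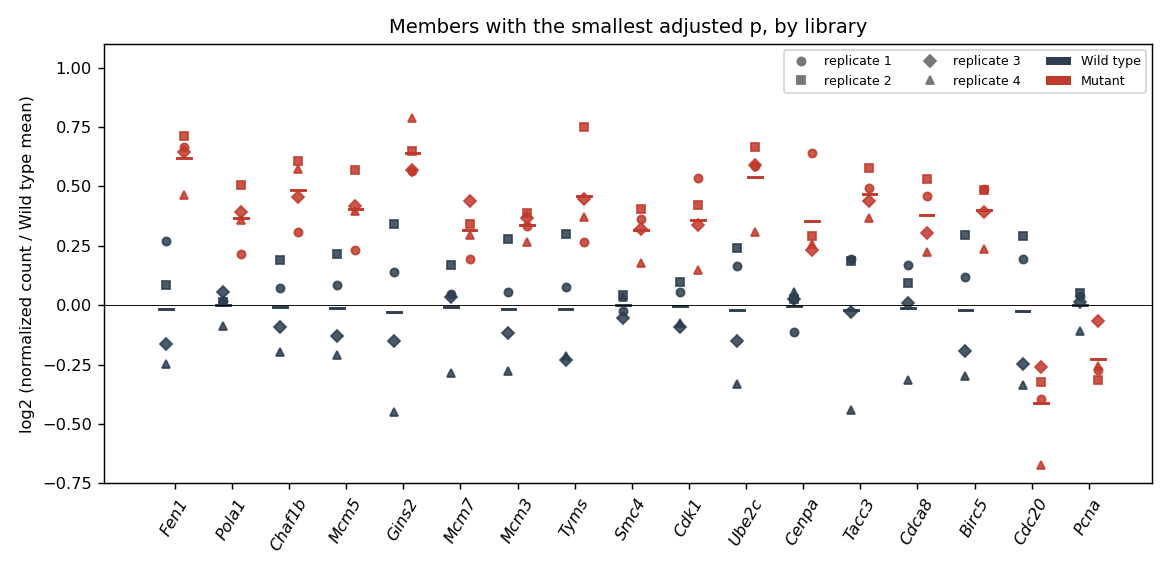
Normalized count in each library over the Wild type mean, on a log2 scale (y axis), for the 8 genes of smallest adjusted p in each list and for *Pcna*. Marker shapes stand for replicates, and short bars for the mean of the log2 values of each group. Mutant libraries of *Fen1*, *Pola1*, *Smc4* and *Cdk1* sit above all Wild type libraries, and those of *Cdc20* and *Pcna* sit mostly below.

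The promoters of these genes are shown because E2F sites and CCAAT boxes are the elements by which both groups are known to be switched on. RefSeq promoters on GRCm38.p6 matched 47 of the 55 genes, with 50 promoters, and the 250 bases before each start were searched on both strands. Exact E2F sites (TTTCCCGC, TTTGGCGC, TTTCGCGC or TTTGCCGC) were found in 27.3% of 22 S phase promoters, 3.57% of 28 G2 and M promoters and 1.86% of all 32851 promoters. The called S phase genes *Pola1* (minus strand, chrX:93632156-93632303), *Mcm5* (plus strand, chr8:75109346-75109508) and *Mcm7* (minus strand, chr5:138171884-138172066) hold such sites. Another promoter of *Mcm7*, not shown, held no E2F site. Their sequences are given in the direction of transcription up to the base before the start. Capitals mark E2F sites, CCAAT boxes and CHR elements, also in the reverse complement, and in *Mcm5* a pair of E2F sites on opposite strands overlaps.
Pola1: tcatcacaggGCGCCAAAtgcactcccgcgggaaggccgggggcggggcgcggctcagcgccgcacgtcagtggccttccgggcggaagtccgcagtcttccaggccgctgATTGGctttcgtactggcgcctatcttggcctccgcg
Mcm5: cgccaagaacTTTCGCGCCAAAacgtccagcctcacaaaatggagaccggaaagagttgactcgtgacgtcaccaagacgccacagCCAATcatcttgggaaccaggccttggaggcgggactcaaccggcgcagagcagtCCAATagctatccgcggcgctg
Mcm7: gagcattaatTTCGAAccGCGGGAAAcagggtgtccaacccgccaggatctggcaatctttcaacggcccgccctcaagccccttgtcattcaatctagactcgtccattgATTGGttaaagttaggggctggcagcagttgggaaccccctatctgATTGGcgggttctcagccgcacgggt

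The E2F site of *Pola1* begins 138 bases before the start, the overlapping pair of *Mcm5* 153 and 149 bases before it, and the site of *Mcm7* 165 bases before it. An E2F site was found in 23.5% of 17 promoters of genes that rose and 9.68% of 31 promoters of genes that were not called, which is 4 and 3 promoters. The 4 belong to *Pola1*, *Mcm5*, *Mcm7* and *Cdk1*, and the 3 to *Mcm6*, *Cdc6* and *Uhrf1*, of which all but *Cdk1* are S phase genes. S phase genes made up a larger part of the genes that rose than of those not called. Whether such sites go with a rise was not tested. These matches are descriptions of letters and were not tested as binding sites.

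Among the G2 and M genes, the genes of chromosome structure included the smallest adjusted p of all 55. *Smc4*, a core subunit of condensin, had 3846, 3964, 3742 and 3390 normalized counts in the Mutant libraries and 2945, 3083, 2884 and 3063 in the Wild type libraries. The groups did not overlap and the Wild type libraries were close together, with a log2 fold change of 0.32 (SE 0.07, adjusted p = 0.0032). *Mki67*, the source of the Ki-67 antigen used to stain cycling cells, had 4502, 4708, 4272 and 3723 counts in the Mutant and 4773, 5298, 4376 and 3764 in the Wild type libraries. These ranges covered each other for the most part, and the log2 fold change of -0.08 was not called (95% interval -0.33 to 0.16, adjusted p = 0.57). *Top2a*, topoisomerase II alpha, stood at 3409 ± 412 against 2985 ± 360 and was not called either (0.19, adjusted p = 0.18).

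*Cdk1*, the kinase that drives entry into mitosis, had 2060, 1904, 1796 and 1577 normalized counts in the Mutant libraries and 1479, 1523, 1335 and 1352 in the Wild type libraries. All Mutant libraries were higher, with a log2 fold change of 0.37 (SE 0.09, adjusted p = 0.0074). None of the 3 cyclins that bind CDK1 was called. *Ccnb1* (cyclin B1) was at 0.20 (95% interval -0.07 to 0.47), *Ccnb2* (cyclin B2) at 0.09 (-0.10 to 0.28) and *Ccna2* (cyclin A2) at -0.19 (-0.56 to 0.18).

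Of the 6 mitotic and checkpoint kinases, 0 were called at an adjusted p under 0.05 by edgeR, and 3 had an unadjusted p under 0.05. DESeq2 called *Aurkb* (adjusted p = 0.030), as did edgeR with the size factors of DESeq2 (0.045). With the opening digits of the description labels, which Mutant and Wild type libraries share in sets, as a block in edgeR, 5 of the 6 were called, *Aurkb* (adjusted p = 0.014), *Bub1* (0.0094), *Bub1b* (0.0060) and *Plk1* (0.044) higher and *Ttk* (0.043) lower. *Aurkb*, the kinase of the chromosomal passenger complex, stood at 517 ± 36.9 normalized counts in the Mutant and 416 ± 61.7 in the Wild type libraries, with a log2 fold change of 0.31 (adjusted p = 0.055). The checkpoint kinase *Bub1* was at 0.35 (adjusted p = 0.096) and the related *Bub1b* at 0.32 (adjusted p = 0.079). *Aurka*, which matures the spindle poles, was at 0.23 (adjusted p = 0.21) and *Plk1*, a kinase with many roles from mitotic entry to cytokinesis, at 0.22 (adjusted p = 0.16). *Ttk*, or MPS1, the kinase at the head of the spindle checkpoint, had 166, 253, 197 and 171 normalized counts in the Mutant libraries and 319, 309, 215 and 227 in the Wild type libraries. Mutant 2 lay above the lower pair of Wild type libraries, and the log2 fold change of -0.44 was not called (SE 0.18, adjusted p = 0.073). By DESeq2, 21 of the 55 genes were called in place of 19.

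The passenger subunits that hold Aurora B on chromosomes both rose. *Cdca8* (borealin) had 592, 622, 531 and 503 normalized counts against 484, 459, 433 and 346, with no overlap (log2 fold change 0.38, SE 0.12, adjusted p = 0.026). *Birc5* (survivin) had 521, 519, 487 and 436 against 402, 455, 325 and 301. Wild type 2 lay above Mutant 4 for *Birc5*, and the log2 fold change was 0.40 (SE 0.14, adjusted p = 0.036). *Cdca8* was not called without Mutant 1, Mutant 2 or Wild type 4 (adjusted p = 0.051, 0.074 and 0.057), nor *Birc5* without Mutant 1, 2 or 3 or Wild type 3 or 4 (adjusted p = 0.056 to 0.091).

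At the centromere and kinetochore, 1 of 5 genes rose. *Cenpa*, the histone H3 variant that marks centromeres, had 1171, 921, 882 and 900 normalized counts in the Mutant libraries and 694, 766, 764 and 781 in the Wild type libraries. All Mutant libraries were higher and Mutant 1 stood above the other Mutant libraries, with a log2 fold change of 0.36 (SE 0.10, adjusted p = 0.014). The kinetochore motor *Cenpe* (0.15), the kinetochore protein *Cenpf* (0.01) and the microtubule-binding NDC80 subunits *Ndc80* (0.16) and *Nuf2* (-0.19) were not called. The sign of *Cenpf* changed under upper quartile scaling and with total counts alone.

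None of the 4 mitotic kinesins was called, and none had an unadjusted p under 0.05. *Kif11*, which pushes spindle poles apart, was at 0.07, *Kif23*, of the central spindle, at -0.08, *Kif20b*, of cytokinesis, at -0.03, and *Kif2c*, a microtubule depolymerase, at 0.29. Of the spindle microtubule proteins, *Tacc3*, which links clathrin and ch-TOG on spindle fibres, had 944, 1003, 911 and 866 normalized counts against 769, 763, 659 and 494. It rose without overlap (log2 fold change 0.47, SE 0.13, adjusted p = 0.015). *Tpx2*, the activator of Aurora A (0.17), *Hmmr*, a spindle pole protein (-0.05), and *Nusap1*, a microtubule bundling protein (-0.27, adjusted p = 0.094), were not called. *Anln*, the scaffold of the cytokinetic ring, was at -0.04 (adjusted p = 0.84).

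Partners of the anaphase-promoting complex, the ubiquitin ligase that ends mitosis, changed in opposite directions. *Ube2c*, its ubiquitin-conjugating enzyme, had 727, 768, 729 and 600 normalized counts in the Mutant libraries and 543, 572, 436 and 384 in the Wild type libraries. The groups did not overlap, and the log2 fold change of 0.54 (SE 0.14, adjusted p = 0.0088) was the highest of the G2 and M genes. Opposite 22.8% of its exonic bases lies *Tnnc2*, which had 453 counts over all libraries, against 4690 for *Ube2c*. *Cdc20*, the coactivator that is held back by the spindle checkpoint, had 889, 934, 976 and 734 against 1335, 1428, 985 and 925. Wild type 1 and 2 stood above all others and Wild type 4 lay inside the Mutant range, with a log2 fold change of -0.40 (SE 0.15, adjusted p = 0.049). The call of *Cdc20* held without Wild type 3 and without Wild type 4, and was lost without any other 1 library (adjusted p = 0.054 to 0.15). *Cdca3*, a factor for the destruction of the inhibitor WEE1, was not called (0.14, adjusted p = 0.49).

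CCAAT boxes (CCAAT) were found in the same 250 bases of 71.4% of G2 and M promoters, 63.6% of S phase promoters and 33.8% of all promoters. CHR elements (TTTGAA or TTCGAA) were found in 32.1%, 18.2% and 17.1%, and both elements together in 28.6%, 13.6% and 6.02%. At least 2 CCAAT boxes stood in 53.6% of G2 and M promoters and 10.1% of all promoters. The promoters of *Cdk1* (minus strand, chr10:69352913-69353130), *Ube2c* (plus strand, chr2:164769691-164769928) and *Cdc20* (minus strand, chr4:118437344-118437423) are shown. Among the 8 G2 and M genes of smallest adjusted p, these are the genes whose searched promoters held both a CCAAT box and a CHR element. *Cdk1* and *Ube2c* rose and *Cdc20* fell.
Cdk1: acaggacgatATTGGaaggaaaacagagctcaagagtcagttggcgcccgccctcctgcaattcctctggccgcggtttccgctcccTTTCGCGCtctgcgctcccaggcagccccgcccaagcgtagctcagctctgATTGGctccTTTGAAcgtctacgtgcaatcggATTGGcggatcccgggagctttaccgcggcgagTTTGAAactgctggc
Ube2c: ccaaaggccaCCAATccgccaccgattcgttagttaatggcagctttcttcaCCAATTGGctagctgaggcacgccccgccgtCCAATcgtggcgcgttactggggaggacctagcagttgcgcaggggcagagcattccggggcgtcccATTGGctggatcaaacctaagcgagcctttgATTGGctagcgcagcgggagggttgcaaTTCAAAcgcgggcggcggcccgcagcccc
Cdc20: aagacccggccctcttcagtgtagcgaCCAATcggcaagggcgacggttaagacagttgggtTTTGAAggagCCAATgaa

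Capitals mark the elements as above, and in *Ube2c* 2 CCAAT boxes on opposite strands overlap by 2 bases. *Cdk1* holds 3 CCAAT boxes, 2 CHR elements at 71 and 15 bases before the start, and an E2F site at 131. *Ube2c* holds 6 CCAAT boxes and a CHR element at 29, and *Cdc20* 2 CCAAT boxes at 53 and 8 and a CHR element at 18. A CCAAT box stood in 52.9% of promoters of genes that rose and 74.2% of those of genes not called.

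S phase and G2 and M transcripts were also compared within each library, by the mean log2 CPM over the genes of each list. For S phase genes the mean was 4.67, 4.84, 4.79 and 4.73 in the Mutant libraries (4.76 ± 0.07, SD, n = 4) and 4.58, 4.72, 4.47 and 4.35 in the Wild type libraries (4.53 ± 0.16). Wild type 2 was above Mutant 1, so the groups overlapped. For G2 and M genes the mean was 4.70, 4.72, 4.55 and 4.45 (4.61 ± 0.13) against 4.58, 4.66, 4.41 and 4.26 (4.48 ± 0.18), with more overlap. The group difference was 0.23 for S phase genes and 0.13 for G2 and M genes. The G2 and M mean minus the S phase mean, which does not depend on the scaling of a library, was 0.03, -0.12, -0.24 and -0.28 in the Mutant libraries (-0.15 ± 0.14) and -0.00, -0.06, -0.06 and -0.09 in the Wild type libraries (-0.05 ± 0.04). Mutant 1 lay above all Wild type libraries and the other Mutant libraries lay below them, and the group difference of -0.10 was within the pooled SD of 0.10. With the median over genes in place of the mean the difference was -0.01.

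**Figure D3:**
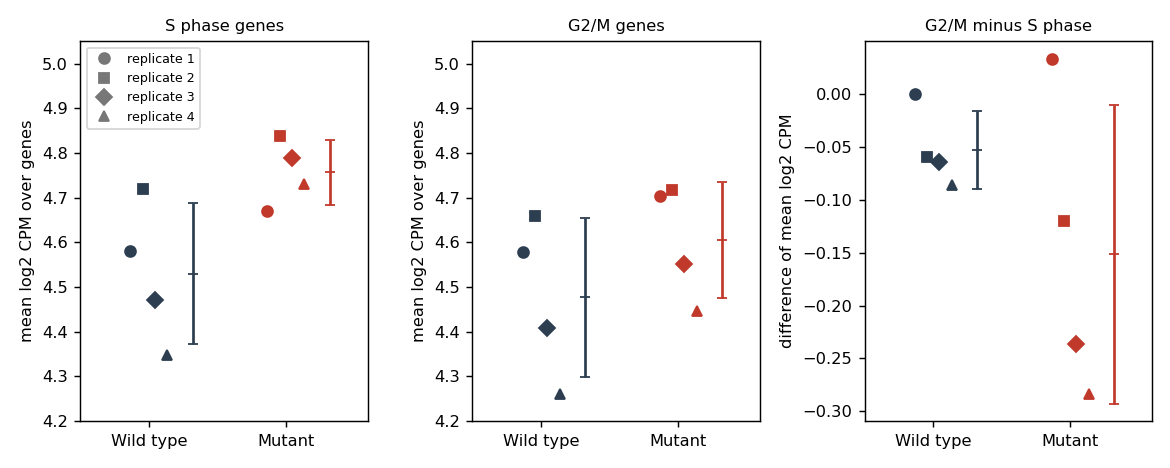
Mean log2 CPM over the S phase genes (left), over the G2 and M genes (middle), and the second minus the first (right), for each library (marker shape by replicate) with the group mean and SD (bars). Mutant 2 and Wild type 2 are the highest of their groups in the left and middle plots, and Wild type 4 is the lowest. In the right plot the Mutant libraries spread from -0.28 to 0.03, around the Wild type range.

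The genes varied together between pups of the same group. Among Wild type libraries, Wild type 2 was the highest in 42 of the 55 genes (76.4%, against 21.8% of all genes) and Wild type 4 the lowest in 40 (72.7%, against 25.3%). Among Mutant libraries, Mutant 2 was the highest in 29 of the 55 genes. Mutant 1 was the lowest in 13 of 23 S phase genes, whereas Mutant 4 was the lowest in 22 of 32 G2 and M genes. The median coefficient of variation of the 55 genes was 9.66% in Mutant and 14.1% in Wild type libraries, and that of all genes was 14.6% and 11.9%.

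Wild type pups were matched to mutants by litter in the study, and the labels do not name litters. The description labels share their opening digits between replicates 1 and 2 of both groups, between both replicates 3 and between both replicates 4. Within these sets the difference of the S phase mean was 0.10, 0.32 and 0.38, and that of the G2 and M mean was 0.09, 0.14 and 0.19, on the log2 scale. Mutant levels were higher in each set for both lists, and the S phase difference exceeded the G2 and M difference in each of the 3 sets. The sets are too few for a test of that order. In the sets, 15, 21 and 20 of the 23 S phase genes and 22, 22 and 23 of the 32 G2 and M genes were above Wild type. With the opening digits as a block, 11 S phase and 14 G2 and M genes rose, and 1 and 3 fell. In that fit 4182 of all 16887 genes rose and 4428 fell. Those called with this block and not without it were *Cdc6*, *Top2a*, *Aurkb*, *Plk1*, *Bub1*, *Bub1b*, *Kif2c* and *Tpx2*, which were higher, and *Ttk* and *Nusap1*, which were lower.

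**Figure D4:**
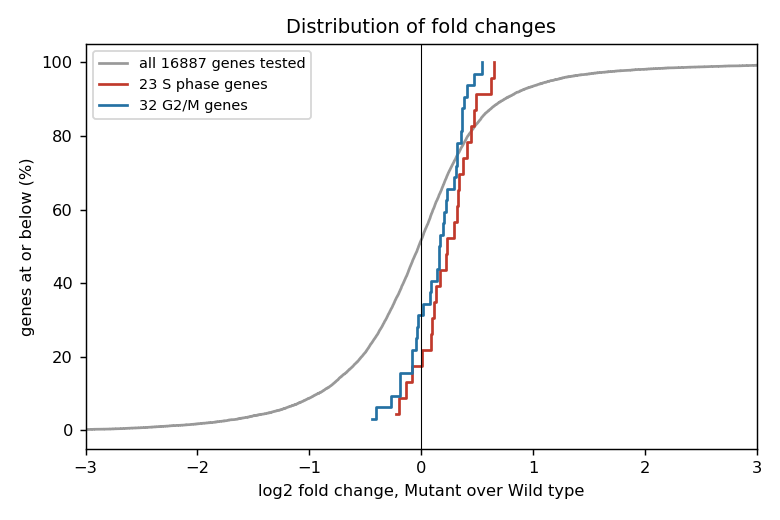
Percent of genes (y axis) at or below each log2 fold change (x axis) for all 16887 genes tested, the 23 S phase genes and the 32 G2 and M genes. The curves of both lists are steeper than that of all genes and end within -0.44 to 0.65, and their medians (0.23 and 0.16) lie to the right of the median of all genes (-0.02).

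Some other genes of the same pathways had larger estimates. Of all genes tested, 21.5% rose and 22.9% fell. Of 39 other replication genes 7 rose (17.9%) and 2 fell (5.13%), with a median log2 fold change of 0.12. *Timeless*, a fork protection factor, fell by 1.02 on the log2 scale (1371 ± 108 against 2788 ± 125 normalized counts, adjusted p = 6.4e-06). *Dbf4*, the activator of the CDC7 kinase, rose by 0.56 and *Cdc25a*, the phosphatase that activates CDK2, by 0.61 (adjusted p = 0.000495 and 0.000589). Of 45 other mitosis genes 6 rose (13.3%) and 5 fell (11.1%), with a median of 0.01. *Ncaph*, a condensin subunit beside SMC4, fell by 0.86 (adjusted p = 0.00028) and *Pttg1* (securin) by 0.80 (adjusted p = 0.00065), whereas *Cks1b*, a CDK-binding protein, rose by 0.65 (adjusted p = 0.00053). *Gtse1*, chosen after its value was seen, was the 1 gene of that list over the fold limit, at 1.12. Of 19 E2F, Rb and DREAM regulators 4 rose (21.1%) and 6 fell (31.6%), with a median of 0.02. *E2f2*, an activating E2F factor, fell by 1.01 (adjusted p = 0.00075), *Rbl2*, the pocket protein p130 that holds cell cycle genes off in resting cells, by 0.60 (adjusted p = 0.00086), and *Tfdp2*, a partner of E2F factors, by 0.50 (adjusted p = 0.0010). In the same list *E2f3* rose by 0.52 (adjusted p = 0.0023) and *Tfdp1* by 0.33 (adjusted p = 0.0048).

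Other dividing cells of the P9 brain can carry the same transcripts, and markers of several cell types differed between the groups. Of 8 tested cerebellar granule precursor markers (of 9) 5 were lower, with 2119 to 3148 normalized counts in sum in Mutant and 4806 to 7254 in Wild type libraries, and *Atoh1*, their defining factor, was at 0 in a library. Most of this sum was *Zic2* (1730 ± 277 in the Mutant and 4268 ± 381 in the Wild type libraries). *Zic2* was the 1 marker of the 8 whose groups did not overlap. Of 8 red blood cell precursor markers 7 were lower (2697 to 8540 against 15895 to 27554). Of 7 oligodendrocyte precursor markers 6 were lower (1505 to 2324 against 1895 to 3357), with *Neu4* at 0 in a library. The median log2 fold change of these markers was -2.57. The marker not called, *Cspg4*, was the most abundant of them, at 1405 ± 372 against 1361 ± 468 normalized counts. Of 6 neuron markers 4 were lower (584 to 840 against 878 to 1944). Of 6 astrocyte markers 1 was higher and 1 lower (18353 to 22041 against 10742 to 12769), of which most was *Gja1* (17370 to 21668 against 9797 to 11839). The astrocyte estimates lay above 0 for 2 markers and below 0 for 4, with a median log2 fold change of -0.59. Of 8 pericyte and smooth muscle markers 2 were higher (20788 to 34871 against 19594 to 35831), and of 5 fibroblast markers 2 were higher and 1 lower (27015 to 34296 against 20742 to 29786). The lower fibroblast marker, *Pdgfra*, is also 1 of the 6 lower oligodendrocyte precursor markers. None of 8 microglia and macrophage markers was called (4300 to 14964 against 4967 to 17514). Of the 10 endothelial markers 3 were higher and 3 lower (363014 to 439820 against 341547 to 413992). No marker was at 0 in every library. The part of these cells in the levels of the 55 genes was not tested.

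**Figure D5:**
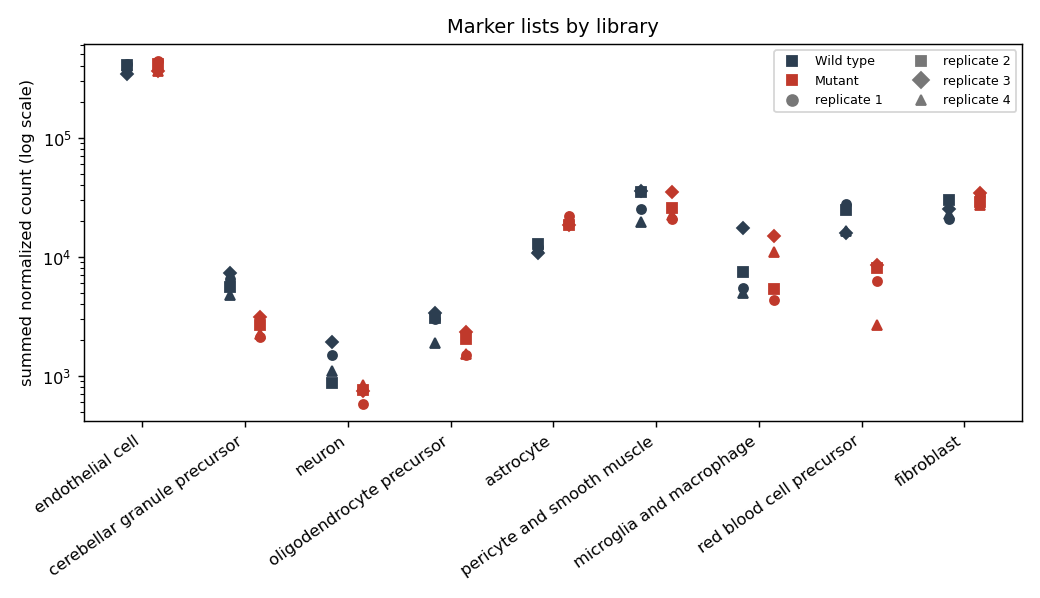
Sum of normalized counts over each cell type's markers (log scale, y axis) in each library, by group (colour) and replicate (marker shape). The Mutant libraries lie below the Wild type libraries for the granule precursor list, where most of the sum is *Zic2*, and for the neuron and red blood cell precursor lists. They lie above them for astrocytes, where most of the sum is *Gja1*.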

How the data were processed

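Brain ECs of 4 Mutant and 4 Wild type pups were measured by poly(A) RNA sequencing. The authors trimmed reads with Trimmomatic, aligned them to GRCm38 with STAR and deposited unnormalized counts per gene, 1 set per library. The counting program, annotation and use of strand are not given in the sources used here. A deposited set normalized with DESeq2 was not used.

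Symbols came from GENCODE vM21 (48970 of 49315 identifiers). The fit used edgeR 4.0.16 under R 4.3.3, with limma 3.58.1 beneath it: TMM scaling, filterByExpr (minimum count 10), and the quasi-likelihood test of Mutant against Wild type with no covariate. P-values were adjusted by Benjamini and Hochberg over 16887 genes, and genes with an adjusted p under 0.05 were called. SE is the absolute log2 fold change over the square root of F, and intervals are 95%. Log2 CPM used a prior count of 2. FPKM is TMM-scaled CPM per kilobase of the deposited gene length. The test was run on simulated data.

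Genes with values in every library are those called with an absolute log2 fold change over 1, filled to 8 per list by smallest adjusted p. None passed the fold limit. *Pcna*, *Mki67* and *Ttk* were added after their values were seen. Of other lists, the 3 genes of smallest adjusted p were named, and of markers the most abundant where it bore on the sum. *E2f3* and *Tfdp1* were also added after their values were seen. Members and lists were chosen with earlier results of these data known.

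Replicate libraries were separate pups and differed by more than sampling noise (chi-square per degree of freedom 7.31 to 41.6). Library totals were 24833373 to 34196955 counts, and differences between pups, more than counting error, limited the precision. The alternatives were DESeq2 1.42.0, 3 scalings, 2 filters, the fold limit, 2 blocks and each library left out.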

Additional observations from a re-analysis of the deposited data

Results flagged for a closer look

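In 4 of the 116 groups of 4 libraries examined (the 55 genes and the 3 list means, in each condition), 1 library stood apart from the others by Dixon's ratio, where chance alone gives about 1 in 20. *Cdc6*, a licensing factor, had 627 normalized counts in Mutant 2 against 520 to 534 in the other Mutant libraries. *Uhrf1*, a reader of DNA methylation at the fork, had 1436 in Mutant 2 against 1254 to 1274. *Cenpa*, the centromeric histone, had 1171 in Mutant 1 against 882 to 921. *Ndc80*, a kinetochore subunit, had 249 in Mutant 3 against 315 to 327. *Cenpa* was still called in each fit that left out 1 library, that without Mutant 1 included, and the other 3 genes were not called with all libraries.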

How the results depend on the processing

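Under the 8 other settings and the 8 fits without 1 library, the medians of both lists stayed above 0, and 10 of the 19 called genes kept their call in all 16 (*Mcm5*, *Gins2*, *Fen1*, *Pola1*, *Chaf1b*, *Smc4*, *Cdk1*, *Cenpa*, *Tacc3* and *Ube2c*). The cause of the changes that follow was not tested. The 1 S phase gene called lower became 0 without a filter on low counts. The 1 G2 and M gene called lower became 0 with the size factors of DESeq2 in edgeR and 3 with upper quartile scaling or total counts alone. Of all 16887 genes, 4571 were lower under upper quartile scaling and 4455 with total counts alone, against 3873 in the main fit. With 1 library left out, S phase genes called higher ran from 6 to 12, those called lower from 0 to 1, and G2 and M genes called lower from 0 to 2. With an absolute log2 fold change over 1 required, 0 genes of either list were called in either direction, and 2356 of all genes.

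The replicate number as a block gave 11 G2 and M genes higher and 2 lower, and the opening digits of the labels as a block gave 14 and 3. Of all 16887 genes, the replicate block gave 3973 higher and 4189 lower, and the block of opening digits 4182 and 4428. Deviations of same-numbered pups correlated by 0.20, 0.21, 0.29 and 0.02, and Mutant 4 correlated best with Wild type 3 (0.38), so the numbers were not taken to pair the samples. The lowest of the 55 genes, *Fen1*, had 1452 counts over all 8 libraries.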
